A study of Mus musculus with 20 samples.

Results

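The LPS-treated RNA of wild-type macrophages was compared with that of TRIF-KO macrophages, as absolute levels rather than as responses over the untreated cells. The comparison rests on 10 of the 20 arrays of the series, 5 wild-type and 5 TRIF-KO, chosen by their labels. Each array carried LPS-treated RNA in its red (Cy5) channel and untreated RNA of the same genotype and hour in its green (Cy3) channel. The red channels of both genotypes were set against each other hour by hour, at 1, 2, 4, 8 and 16 h of LPS, and every series of 5 values is given in that order.

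Both groups were macrophages grown from bone marrow of mice labelled C57BL/6, in medium conditioned by the L929 cell line as a source of M-CSF, and kept without serum during the experiment. LPS from Salmonella was given at 200 ng/mL, and the cells of the green channel received none. The wild-type group is labelled wild type, and the other group lacked TRIF by its label. The labels do not say how the gene of TRIF was disrupted. Nothing in them tells whether the 5 arrays of a genotype came from separate animals or cultures, so p-values measure only the spread between these arrays. For a mean difference between genotypes, this spread is how much the difference varied from hour to hour, not a spread between replicates. There was 1 array per genotype and hour, and a value at 1 hour has no replicate.

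LPS, a component of the outer membrane of bacteria, is recognised by the receptor Tlr4, which signals through the adapters MyD88 and TRIF (gene Ticam1). TRIF acts from endosomes and activates Irf3, which switches on interferon beta. Secreted interferon beta then acts back on the cells through its receptor and factors such as Stat2 and Irf9, and this second step induces a large set of antiviral genes.

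Between 52.8% (TRIF-KO, 8 h) and 66% (wild-type, 8 h) of the 43020 non-control spots were well above background in the LPS channel. All 7 macrophage markers were well above background on all 10 arrays. The labels describe the mice as matched in sex, but Xist lay between 9.51 and 10.2 (log2 intensity, the unit of all levels) on the wild-type arrays and between 6.47 and 6.61 on the TRIF-KO arrays, and the Y-linked Eif2s3y between 6.51 and 6.85 against 13.8 to 14.7. X- and Y-linked genes were left out, but sex and genotype cannot be told apart for the other genes. The arrays lay on 3 slides scanned on 1 day: wild-type 1 to 8 h on slide 1, wild-type 16 h and TRIF-KO 1 to 4 h on slide 2, and TRIF-KO 8 and 16 h on slide 3. No slide held both genotypes at the same hour, so no within-slide value of an hour exists, and for a level at 1 hour genotype and slide cannot be told apart. The log2 ratio of LPS-treated over untreated RNA within an array is called the response, and the difference of the responses, wild-type minus TRIF-KO, is given for most genes whose levels are shown in full.

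After LPS, the interferon-induced genes stood higher in wild-type cells than in TRIF-KO cells at 4 h above all. At 16 h, 5 of 112 were over 1 higher on the log2 scale and 3 over 1 lower, against 2.21% and 2.71% of all genes. Of the 112 interferon genes tested (from 6 lists with 116 genes), 58 of the 110 measured at 4 h were higher in wild-type by over 1 on the log2 scale, which is a factor of 2, against 6.98% of all genes. Over the 5 hours together, 107 of the 112 had a higher mean in wild-type, with a median difference of 0.40, against 10034 of all 19203 genes and a median of 0.012. None of the 112 passed limma's test of the mean over the hours after Benjamini-Hochberg adjustment over all genes (threshold 0.05), while 37 had an unadjusted p under 0.05. Because this test counts change of a difference between hours as spread, a difference at 4 h alone widens its own SE. Over all genes 12 were called in this test, 0.0625% of those tested, and 2748 had an unadjusted p under 0.05. In bulk RNA, fewer cells that express a gene and less of its RNA per cell cannot be told apart.

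Ifnb1, the gene of interferon beta, was the ligand with the largest differences at single hours. Its LPS-treated levels were 9.59, 14.57, 12.96, 8.92 and 9.14 in wild-type and 8.53, 10.15, 12.10, 11.23 and 9.16 in TRIF-KO cells. The wild-type level was highest at 2 h, 4.41 above TRIF-KO, the TRIF-KO level was highest at 4 h, and at 8 h wild-type lay 2.31 below. Over the 5 hours the levels of both groups overlapped, and the mean difference was 0.80 (SE 0.81, n = 5 pairs, limma adjusted p = 0.671). Its responses differed by 1.00, 3.50, 1.04, -2.04 and 0.29, with the same signs as the levels at 1 to 8 h. The untreated cells changed as well: untreated Ifnb1 was 7.52, 8.59, 9.07, 10.82 and 11.24 in wild-type and 7.47, 7.68, 9.26, 11.09 and 11.55 in TRIF-KO, and rose by 1.06 per doubling of the hours (limma adjusted p = 0.000107). At 16 h the LPS-treated level was thus below the untreated level in both genotypes.

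The other ligands and the receptors differed less. The 3 interferon alpha genes tested, Ifna1, Ifna2 and Ifna5, differed by between -0.55 and 0.67 at any hour. Ifnar2, a subunit of the receptor of interferon beta, was higher in wild-type by 1.01 at 8 h, and its partner Ifnar1 by 0.81. Both were within 0.084 of TRIF-KO at 1 and 2 h.

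Among the signalling and regulatory factors of the interferon response, 9 of 18 were higher in wild-type by over 1 at 4 h, with a median difference of 0.97 at that hour. Irf7, a factor that amplifies interferon production, had LPS-treated levels of 13.48, 12.49, 14.09, 15.11 and 15.40 in wild-type and 13.56, 12.47, 13.00, 14.25 and 13.94 in TRIF-KO. The genotypes were within 0.086 of each other at 1 and 2 h, and wild-type was higher by 1.09, 0.86 and 1.46 at the later hours, where the responses differed by 1.02, 1.20 and 1.68. Stat2, a factor that carries the signal of the interferon receptor, differed by 0.34, 0.20, 0.85, 0.38 and 0.23, higher in wild-type at all 5 hours (mean 0.40, SE 0.12, limma adjusted p = 0.264). Usp18, a brake on the interferon receptor, differed by -0.002, 0.29, 1.69, 0.11 and 0.10, largest at 4 h. Irf1 differed by -0.026, 0.27, 0.44, -0.40 and -0.10, within 0.44 at every hour. Jak2, the kinase of several cytokine receptors, was higher in wild-type at all 5 hours, by 0.29, 1.01, 1.23, 0.62 and 0.39, and was named after its values were seen.

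The antiviral effectors and sensors formed the longest list, and 30 of its 48 tested genes were higher in wild-type by over 1 at 4 h, against 6.98% of all genes. At 2, 8 and 16 h the same was true of 2, 2 and 1, near the shares of all genes (3.57%, 3.01% and 2.21%). Ifit1, which binds foreign RNA, reached 14.81, 14.63, 17.80, 16.33 and 15.61 in wild-type and 14.60, 13.91, 15.56, 16.48 and 15.46 in TRIF-KO cells. At 4 h wild-type was 2.24 higher, which is 4.73-fold, at 2 h it was 0.72 higher, and at 8 and 16 h the genotypes were within 0.15 of each other. Its responses differed by 2.16 at 4 h and by at most 0.59 at the other hours. Rsad2 (viperin, an inhibitor of virus replication) had levels of 15.68, 16.13, 19.01, 18.37 and 16.74 in wild-type and 15.41, 15.47, 16.67, 18.03 and 16.64 in TRIF-KO. Its difference of 2.34 at 4 h compares with 0.10 to 0.67 at the other hours, and its responses differed by 0.62, 0.76, 3.14, 1.00 and 0.48, also most at 4 h. Oasl1, a relative of the oligoadenylate synthetases, had levels of 15.93, 17.27, 18.55, 18.16 and 17.73 in wild-type and 15.17, 15.09, 15.62, 17.71 and 17.29 in TRIF-KO. Its wild-type level was higher at all 5 hours and already by 2.18 at 2 h (mean 1.35, SE 0.39, limma adjusted p = 0.247), but the ranges of both groups overlapped. The responses of Oasl1 differed by 0.37, 1.77, 1.93, 0.64 and 0.73, and its untreated levels by 1.00 at 4 h.

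Other well known members had their largest difference at the same hour. Ifit2 differed by -0.43, 0.11, 1.94, 0.18 and 0.81 and Ifit3 by 0.13, 0.42, 1.56, 0.34 and 0.41, both relatives of Ifit1. The myxovirus resistance genes, whose products block virus particles and polymerases, differed by -0.17, -0.084, 1.70, 0.24 and 0.66 for Mx1 and -0.06, 0.65, 1.85, -0.0055 and 0.14 for Mx2. Isg15, a small protein attached to others like ubiquitin, differed by -0.12, 0.67, 0.81, -0.034 and 0.12, the smallest 4 h value of these 5 genes. Of the 112 interferon genes, 3 were called for a difference without LPS, a share near the 2.17% of all genes (416). Ifit2 was among them, and its untreated level was lower in wild-type by a mean of 0.76 (limma adjusted p = 0.0195). Its LPS-treated levels thus differed less than its responses, by 1.94 against 2.72 at 4 h. The others were Herc6, a ligase for Isg15, at -0.42 (adjusted p = 0.0469) and Gbp4 at 0.62 (adjusted p = 0.0475). These untreated calls depend on the fit: over all genes 2 and 22 were called with slide as a fixed and a random block, 23 with scaled arrays, 13 to 17 without any 1 of the pairs of 1 to 8 h, and 2868 without the 16 h pair.

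**Figure D1:**
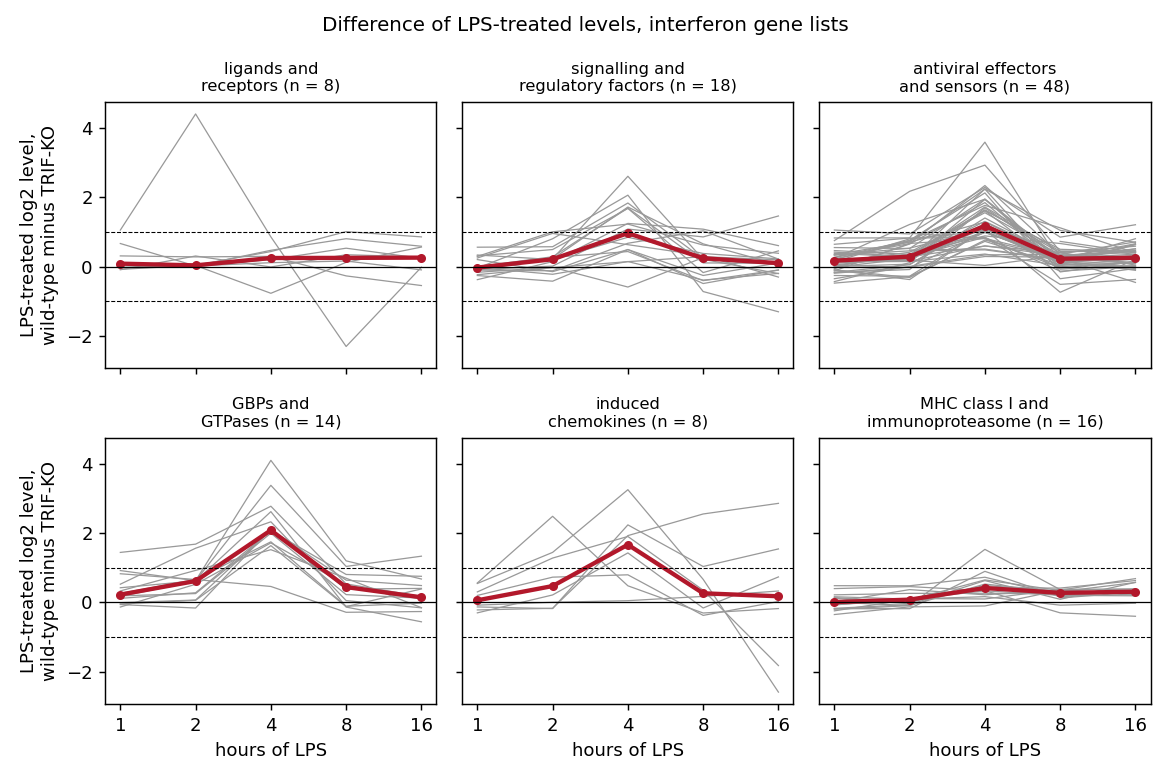
Difference of the LPS-treated log2 level, wild-type minus TRIF-KO, at each hour for the genes of the 6 interferon lists; thin lines are single genes, the thick line is the median of the list, and dashed lines mark differences of 1. The medians are highest at 4 h for the effectors, the guanylate-binding proteins and the chemokines (1.18, 2.09 and 1.67), while that of the MHC class I list is 0.42.

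The factor that holds Stat2 and Irf9 binds a response element whose core is GAAA, any 2 bases and GAAA again. That core (GAAANNGAAA, searched on both strands, so also as TTTCNNTTTC) was looked for in the 250 bases before the start of each gene in RefSeq's promoters (GRCm38.p6). It was present in 2.98% of the 32851 promoters of that table. Counted by gene, it was present in 3.56% of the 11931 tested genes that the table holds (425) and in 31 of the 86 interferon genes among them (36%), including 9 of 9 guanylate-binding proteins and immunity-related GTPases and 13 of 37 effectors. The 30 interferon genes with a match and a value at 4 h had a median LPS-treated difference of 1.54 at that hour, with 19 above 1, and the 54 without a match had a median of 0.88, with 24 above 1. Match and gene list were not separated in this comparison. The list with 9 of 9 matches had a 4 h median of 2.09, and the MHC class I list, with 2 of 14, had 0.42. A match describes letters in this window and is not a measured binding site. The last 200 bases before the start are shown for 6 of the genes described here that hold a match, to let the number and position of the core be compared; capitals mark the core, and overlapping matches run together.
Ifit1: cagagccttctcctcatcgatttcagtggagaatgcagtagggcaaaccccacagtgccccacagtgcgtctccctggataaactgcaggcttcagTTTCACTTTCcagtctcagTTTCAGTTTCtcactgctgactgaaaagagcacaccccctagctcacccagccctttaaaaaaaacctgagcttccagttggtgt
Ifit3: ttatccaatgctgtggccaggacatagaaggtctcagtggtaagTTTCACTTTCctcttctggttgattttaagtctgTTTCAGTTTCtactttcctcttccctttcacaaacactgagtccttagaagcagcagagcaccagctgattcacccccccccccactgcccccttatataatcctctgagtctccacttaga
Isg15: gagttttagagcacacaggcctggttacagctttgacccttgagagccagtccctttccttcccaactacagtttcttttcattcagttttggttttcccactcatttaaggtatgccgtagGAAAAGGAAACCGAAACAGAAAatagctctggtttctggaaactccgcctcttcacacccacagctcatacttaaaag
Rsad2: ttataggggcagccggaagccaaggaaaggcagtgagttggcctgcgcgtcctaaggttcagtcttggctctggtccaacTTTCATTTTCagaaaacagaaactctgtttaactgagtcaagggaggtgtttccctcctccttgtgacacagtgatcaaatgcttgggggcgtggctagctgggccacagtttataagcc
Gbp2: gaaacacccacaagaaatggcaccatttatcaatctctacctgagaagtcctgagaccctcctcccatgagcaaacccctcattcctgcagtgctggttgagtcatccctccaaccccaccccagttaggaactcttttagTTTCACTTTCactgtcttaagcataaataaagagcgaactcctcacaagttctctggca
Gbp5: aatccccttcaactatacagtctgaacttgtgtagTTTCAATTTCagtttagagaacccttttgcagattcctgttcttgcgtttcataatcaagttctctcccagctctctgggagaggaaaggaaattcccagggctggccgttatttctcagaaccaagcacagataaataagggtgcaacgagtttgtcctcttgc
In this order they lie at chr19:34640689-34640888, strand +, chr19:34583329-34583528, strand +, chr4:156200819-156201018, strand -, chr12:26456453-26456652, strand -, chr3:142620463-142620662, strand + and chr3:142496734-142496933, strand + (GRCm38.p6). Ifit1 and Ifit3 hold 2 matches each and Isg15 holds 3 that overlap, and the 4 h differences of these genes were 2.24, 1.56 and 0.81.

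Guanylate-binding proteins and immunity-related GTPases, which attack the vacuoles of intracellular microbes, had the largest median of the interferon lists at 4 h, 2.09, and 13 of 14 were higher in wild-type by over 1. Gbp5 had LPS-treated levels of 11.27, 13.16, 16.35, 15.23 and 13.53 in wild-type and 10.75, 11.59, 14.02, 15.17 and 13.68 in TRIF-KO. Wild-type was ahead by 1.57 and 2.33 at 2 and 4 h, and from 8 h the genotypes lay within 0.16. Its responses differed by 1.63 and 1.86 at 2 and 4 h, and by 0.48 and 0.29 later. Gbp2 differed by 0.33, 0.92, 1.52, 0.70 and -0.15, higher in wild-type until 8 h. The exception at 4 h was Gbp8, at 0.46. The largest 4 h values were 4.11 for Gbp4 and 3.38 for Iigp1, both named after their values were seen, and Iigp1 was still 1.34 higher at 16 h.

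Of the interferon-induced chemokines, 5 of 8 were higher in wild-type by over 1 at 4 h. Cxcl9, which attracts T cells, had levels of 9.21, 9.79, 14.59, 14.14 and 12.82 in wild-type and 9.34, 9.97, 12.35, 13.10 and 11.27 in TRIF-KO. It did not differ by more than 0.18 at 1 and 2 h, and wild-type was higher by 2.24, 1.04 and 1.55 from 4 h on. Untreated Cxcl9 was higher by 1.05 at 4 h too, and the responses differed by 1.19, 0.68 and 1.36 at these hours. Cxcl10, a ligand of the same receptor with 1 saturated spot among the 10 arrays, had levels of 17.39, 18.65, 19.27, 18.17 and 17.75 in wild-type and 17.19, 17.92, 18.47, 18.54 and 17.73 in TRIF-KO. Its largest level difference was 0.80, at 4 h, whereas the difference of its responses at that hour was 2.88. That gap lay in the untreated cells, where Cxcl10 was 12.76 in wild-type and 14.84 in TRIF-KO at 4 h. The mean LPS-treated difference of this probe was 0.28, and the mean of all kept probes of Cxcl10 gave 0.59. Ccl5, which attracts T cells and monocytes, had levels of 14.21, 17.97, 19.07, 18.75 and 18.78 in wild-type and 13.65, 15.48, 18.59, 19.06 and 18.95 in TRIF-KO, apart by 2.49 at 2 h and by at most 0.56 at the other hours. Its responses differed by 0.39, 2.16, 0.54, 0.65 and 0.57, positive at all 5 hours. The probe of Cxcl11 was bright in both channels of all arrays and nearly flat, with differences of -0.079, 0.0039, 0.05, 0.17 and 0.33, and another probe of the gene gave a mean difference of 0.87. The monocyte attractants Ccl2 and Ccl7 went from 1.91 and 3.26 higher in wild-type at 4 h to 1.83 and 2.59 lower at 16 h. The untreated cells differed the same way, by 1.24 and 1.18 at 4 h and by -1.07 and -1.45 at 16 h. The responses of Ccl2 differed by 0.67 and -0.76 at these hours, and those of Ccl7 by 2.08 and -1.15.

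At 4 h, MHC class I molecules and the immunoproteasome, which cut and display peptides, differed least of the induced lists, with a median of 0.42. The peptide transporter Tap1 was the 1 of 16 genes over 1 higher at that hour (1.53). All 16 had a positive mean difference, with a median of 0.22. At 8 and 16 h the list medians were 0.28 and 0.31, beside 0.44 and 0.15 for the guanylate-binding proteins and GTPases. The 16 h median was the largest of the interferon lists.

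Hour by hour, the number of interferon genes higher in wild-type by over 1 was 3 of 110, 9 of 112, 58 of 110, 9 of 112 and 5 of 112. Over all genes the shares were 1.73%, 3.57%, 6.98%, 3.01% and 2.21%, so that the interferon share was 2.73% against 1.73% at 1 h, 52.7% against 6.98% at 4 h and 4.46% against 2.21% at 16 h. The 3 genes at 1 h were Ifnb1, Ifi44 and Gbp6, and the 5 at 16 h were Irf7, Ifi44, Iigp1, Cxcl9 and Ccl8, named after their values were seen. Lower in wild-type by over 1 were 0, 0, 0, 1 and 3 interferon genes, against 0.12%, 0.188%, 2.02%, 1.88% and 2.71% of all genes. The 1 at 8 h was Ifnb1, and the 3 at 16 h were Socs1, Ccl2 and Ccl7. Without the 4 h pair the median of the 112 mean differences was 0.209. With arrays scaled to a common median log intensity instead of quantile normalized, the median of all genes at 4 h moved from -0.045 to 0.303. Relative to these medians, 60 interferon genes were over 1 higher in the quantile-normalized levels and 80 in the scaled ones.

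The hour of the highest LPS-treated level differed as well. Among interferon genes measured at all hours, 54 of 108 had their highest wild-type level at 4 h and 29 at 8 h, whereas 8 of 112 had their highest TRIF-KO level at 4 h and 74 at 8 h. Of all genes, 19% and 16% peaked at 4 h in wild-type and TRIF-KO, and 17.1% and 20.3% at 8 h. The guanylate-binding proteins and GTPases showed it for most members, with 10 of 14 highest at 4 h in wild-type and 12 of 14 at 8 h in TRIF-KO. Since the 8 h arrays lay on slides 1 and 3 and the 4 h arrays on slides 1 and 2, the peak of TRIF-KO and its slide cannot be told apart.

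**Figure D2:**
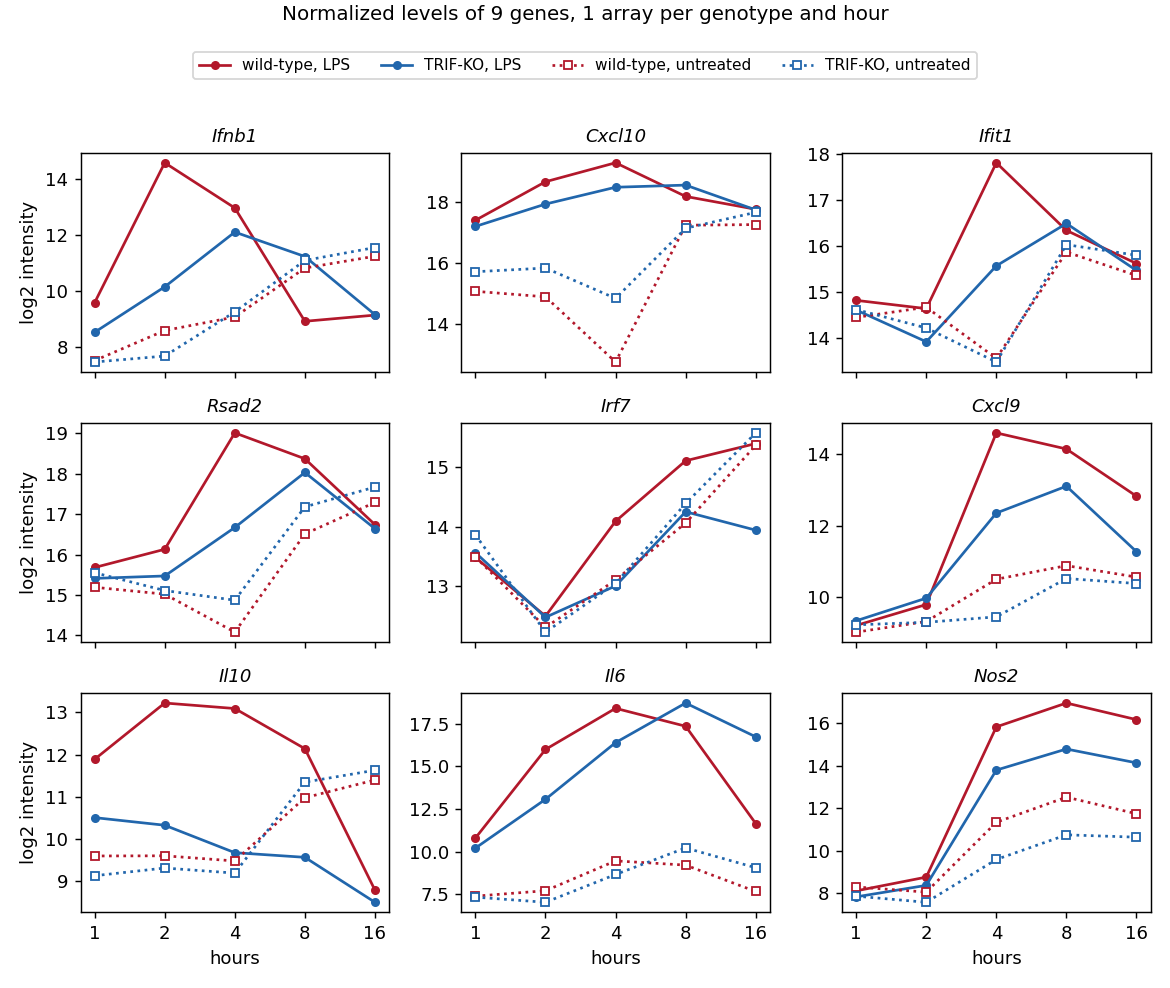
Log2 intensity of 9 genes at each hour in LPS-treated (solid lines) and untreated (dotted lines) wild-type and TRIF-KO cells, 1 array per point and no error bars. Wild-type Ifnb1 peaks at 14.57 at 2 h, Ifit1 and Rsad2 are farthest apart at 4 h, Cxcl9 and Nos2 stay apart to 16 h, and the Il6 lines cross between 4 and 8 h.

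The untreated cells changed with time in both genotypes, and interferon genes were among the genes that moved. In the untreated channel 52 of the 112 interferon genes rose over the hours and 1, Ifnar2, fell, against 10.7% of all genes that rose and 11.7% that fell (limma, slope over log2 hours, adjusted p under 0.05). Untreated Rsad2 was 15.19, 15.02, 14.08, 16.51 and 17.29 in wild-type and 15.55, 15.11, 14.87, 17.18 and 17.67 in TRIF-KO, and it rose by 0.60 per doubling of the hours (adjusted p = 0.0285). By 16 h it was above the LPS-treated level in both genotypes. Between genotypes, the median untreated difference of the 112 genes was -0.092, and whether their time course without LPS differed between genotypes was not tested. At 4 h, 8 interferon genes were over 1 higher in untreated wild-type cells, among them Cmpk2 (1.38), and 1, Cxcl10, was over 1 lower (-2.09); Cmpk2 was named after its values were seen. By hour the median difference of their responses was 0.26, 0.23, 1.14, 0.44 and 0.40, beside 0.13, 0.25, 1.08, 0.24 and 0.24 for the LPS-treated levels. The 4 h peak was thus present in the ratios within arrays, and at 8 and 16 h the responses differed more than the levels. No gene was called for the difference of responses (0%, 3364 with an unadjusted p under 0.05 in limma). None was called for a steady rise or fall of the level difference over log2 hours (0%, 3838 with an unadjusted p under 0.05). In that slope 4 h is the middle hour and has no weight, so it does not test a peak at 4 h.

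Il10, the gene of an anti-inflammatory cytokine, had the largest mean difference of the 29 genes described at every hour. Its LPS-treated levels were 11.89, 13.22, 13.09, 12.14 and 8.80 in wild-type and 10.51, 10.33, 9.68, 9.57 and 8.51 in TRIF-KO. Wild-type was higher at all 5 hours, by 1.38, 2.90, 3.41, 2.57 and 0.29, and only the 16 h level of wild-type fell into the range of TRIF-KO. The mean difference was 2.11 (SE 0.43, n = 5 pairs, limma adjusted p = 0.203; untreated 0.091), so it was not called. Its responses differed by 0.91, 2.61, 3.12, 2.93 and 0.51, positive at all 5 hours. As with Ifnb1, untreated Il10 rose to 11.40 and 11.63 at 16 h, above the LPS-treated levels of 8.80 and 8.51.

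Inflammatory cytokines differed in opposite directions early and late. At 2 and 4 h, 12 and 11 of the 22 were higher in wild-type by over 1, against 3.57% and 6.98% of all genes, and none was lower. At 8 and 16 h, 6 and 9 were lower by over 1, against 1.88% and 2.71% of all genes, and 3 and 0 higher. The untreated cells showed a smaller reversal: 3 and 4 of the 22 were over 1 higher in wild-type at 2 and 4 h and none lower, and 3 and 5 were over 1 lower at 8 and 16 h, beside 2 and 0 higher. The list medians were 0.28, 1.17, 0.94, -0.44 and -0.48 for LPS-treated levels, 0.051, 0.27, 0.14, -0.33 and -0.39 for untreated levels and 0.18, 0.59, 0.80, -0.27 and -0.31 for the difference of responses. Il6, an inducer of the acute phase response, had levels of 10.79, 15.98, 18.39, 17.34 and 11.64 in wild-type and 10.20, 13.06, 16.38, 18.70 and 16.72 in TRIF-KO. Wild-type was 2.92 and 2.01 higher at 2 and 4 h and 5.08 lower at 16 h, where TRIF-KO kept a level of 16.72. Its responses differed by 0.53, 2.24, 1.21, -0.37 and -3.69, and its untreated levels by -1.39 at 16 h. Tnf, the gene of tumour necrosis factor, had levels of 16.92, 18.03, 17.42, 15.88 and 12.51 in wild-type and 16.73, 16.77, 18.04, 17.74 and 15.26 in TRIF-KO. It was higher in wild-type by 1.25 at 2 h and lower by 1.86 and 2.75 at 8 and 16 h, but its responses differed by -0.29, -0.022, -0.13, -0.29 and -1.73, so that the difference of responses passed 1 at 16 h alone. Il1b differed by 1.23, 0.37, 0.16, -0.45 and -0.44 and the largest value was at 1 h, from a spot that was saturated on 6 of the 10 arrays. Untreated Il1b differed by 1.49 at that hour too.

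**Figure D3:**
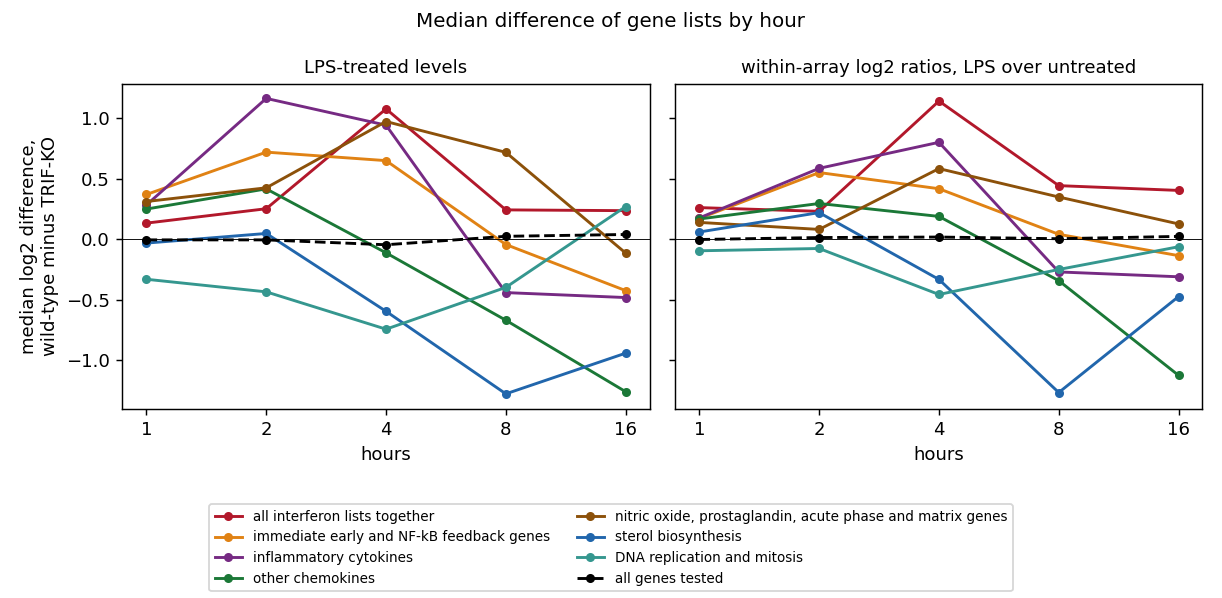
Median log2 difference, wild-type minus TRIF-KO, of 7 gene lists and of all genes (dashed) at each hour, for LPS-treated levels on the left and for the within-array ratios of LPS over untreated on the right. The interferon lists peak at 4 h in both panels (1.08 and 1.14), and cytokines, other chemokines and sterol genes are below 0 at 8 and 16 h.

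Of the chemokines outside the interferon lists, more were lower than higher in wild-type late in the course. At 8 and 16 h, 6 and 8 of 13 were lower by over 1 and 1 was higher at each hour, with medians of -0.67 and -1.26. Lower by over 1 at these hours were 1.88% and 2.71% of all genes. The 1 higher gene was Ccl24, which attracts eosinophils, at 2.00 and 2.58. In the responses the medians were -0.34 and -1.13 at these hours. Cxcl1, which attracts neutrophils, had levels of 17.73, 18.65, 17.74, 16.56 and 12.53 in wild-type and 16.20, 16.77, 18.28, 17.77 and 15.33 in TRIF-KO. Its difference was 1.53 and 1.89 at 1 and 2 h, and it was lower in wild-type by 1.21 and 2.80 at 8 and 16 h. The early difference was present without LPS, at 1.80 and 1.86, and the responses at those hours differed by -0.27 and 0.023. The late difference was present in the responses, at -0.95 and -2.51.

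Immediate early genes and feedback genes of NF-kB had medians of 0.37, 0.72, 0.65, -0.04 and -0.42. Nfkbia, the inhibitor that NF-kB induces first, differed by 0.016, 0.21, 0.014, -0.30 and -0.40 and stayed within 0.40 at every hour. Dusp1, a phosphatase that ends MAP kinase signalling, was higher in wild-type at all 5 hours, by 0.42, 2.14, 2.21, 2.05 and 1.26, and Fos, a subunit of AP-1, by 0.60, 1.53, 0.65, 1.61 and 1.26. Neither was called (limma adjusted p = 0.156 and 0.144), and both were named after their values were seen.

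The receptor and adapters of LPS differed little. No gene of the 17 tested in the TLR4 pathway was over 1 higher at any hour, where 1.73% to 6.98% of all genes were. At 4 h 1 was over 1 lower, Ticam2 (-1.48), the adapter that links Tlr4 to TRIF, against 2.02% of all genes. Ticam1, the gene of TRIF itself, had LPS-treated levels of 10.51, 11.81, 10.92, 11.44 and 10.21 on arrays labelled wild-type and 10.41, 11.38, 11.68, 11.72 and 10.96 on arrays labelled TRIF-KO. The level was thus not lower in the arrays labelled TRIF-KO (mean difference -0.25, SE 0.20, limma adjusted p = 0.573), and since the disrupted part of the gene is not stated, this probe does not check the label. Myd88 differed by 0.06, 0.30, 0.69, -0.069 and -0.18 and Tlr4 by -0.22, -0.038, 0.61, -0.60 and 0.19, each with both signs.

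Of the genes of nitric oxide, prostaglandin, acute phase and matrix biology, 10 of 20 were over 1 higher in wild-type at 4 h. At 8 h the same was true of 8 of 20, and at these hours 0 and 2 were over 1 lower. The shares of all genes over 1 higher were 6.98% and 3.01%, and those over 1 lower 2.02% and 1.88%. At 16 h 2 were higher and 3 lower, against 2.21% and 2.71% of all genes, with a list median of -0.11. Nos2, which makes nitric oxide, had LPS-treated levels of 8.12, 8.77, 15.82, 16.94 and 16.16 in wild-type and 7.84, 8.38, 13.79, 14.78 and 14.13 in TRIF-KO. From 4 h on wild-type was higher by 2.02, 2.16 and 2.03, which is 4.07-, 4.47- and 4.09-fold, and at 1 and 2 h the genotypes were within 0.39. Untreated Nos2 was higher in wild-type too, with levels of 8.30, 8.06, 11.34, 12.52 and 11.74 against 7.87, 7.58, 9.59, 10.75 and 10.64, so the responses differed by 0.28, 0.40 and 0.93 at the later hours. Neither its mean LPS-treated difference (1.38, SE 0.33, limma adjusted p = 0.214) nor its untreated one (1.10, adjusted p = 0.0537) was called.

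The enzymes of sterol biosynthesis were lower in wild-type from 4 h of LPS on, with hourly medians of -0.031, 0.049, -0.60, -1.28 and -0.94. All 18 tested had a negative mean difference, with a median of -0.55. Over 1 lower were 13 at 8 h and 9 at 16 h, against 1.88% and 2.71% of all genes. Lss, which closes the sterol rings, differed by -0.15, -0.24, -1.16, -1.47 and -1.02; it was named after its values were seen. The median of the untreated mean differences was -0.10, and the untreated medians at 4, 8 and 16 h were -0.21, 0.064 and -0.36. At these hours the median differences of responses were -0.33, -1.27 and -0.47, so at 4 and 16 h the responses differed less than the levels. None of the 18 was called, and 8 had an unadjusted p under 0.05 in limma, against 2748 of all 19203 genes. Of 19 genes of DNA replication and mitosis, 7 were over 1 lower in wild-type at 4 h and 5 at 8 h. The shares of all genes were 2.02% and 1.88% at these hours. The medians of the 19 were -0.74 and -0.40, and 0.27 at 16 h. Their untreated medians at 4, 8 and 16 h were -0.42, -0.085 and 0.13, and the median differences of responses -0.46, -0.25 and -0.061. In untreated cells 11 of the 19 fell with time and 1 rose, against 11.7% and 10.7% of all genes.

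The costimulatory and adhesion molecules had a median difference of 0.69 at 4 h, beside 0.25 in untreated cells and 0.325 for the responses. At that hour 6 of 14 were over 1 higher in wild-type and 1 lower, against 6.98% and 2.02% of all genes. At 8 h 2 were over 1 higher and 2 lower, against 3.01% and 1.88% of all genes. At 16 h 0 were higher and 2 lower, against 2.21% and 2.71%, with a list median of -0.47. Cd86, which costimulates T cells, was higher by 1.41 and 1.94 at 4 and 8 h and by 0.35 at 16 h, and it was named after its values were seen.

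The 12 genes called for the mean LPS-treated level were not interferon genes. In untreated cells 11 of them were also called, with the same sign, against 2.17% of all genes. Of the 12, 10 were higher and 2 lower in wild-type. All had the same sign at every measured hour, which the test that called them itself favours. None was called for the response, where 0 of all 19203 genes were called. Ankrd29 (chromosome 18) was 12.84, 13.16, 12.78, 12.57 and 12.84 in wild-type and 6.96, 7.31, 7.29, 6.88 and 6.53 in TRIF-KO, without overlap (difference 5.84, SE 0.13, limma adjusted p = 1.06e-05). The untreated difference was 6.08, and the TRIF-KO level was well above background on 3 of 5 arrays. Lrmda (chromosome 14, probe at 23403747 to 23415685 in mm9) was lower in wild-type, at 8.78, 8.48, 8.10, 7.20 and 8.29 against 12.22, 12.01, 11.28, 10.15 and 11.50 (difference -3.27, SE 0.11, adjusted p = 0.000113; untreated -2.99).

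Camk2b, a subunit of a calcium-dependent protein kinase (chromosome 11, probe at 5869675 to 5869734 in mm9), had levels of 11.81, 11.92, 10.95, 10.39 and 9.79 in wild-type and 8.91, 9.26, 8.57, 8.38 and 7.93 in TRIF-KO, without overlap (difference 2.36, SE 0.17, limma adjusted p = 0.00698). Gdf3, a ligand of the TGF-beta family (chromosome 6, probe at 122556340 to 122556399 in mm9), had levels of 13.18, 13.21, 13.27, 12.24 and 12.19 and 11.07, 11.49, 11.05, 10.24 and 9.72, also without overlap (difference 2.10, SE 0.13, adjusted p = 0.00267). The untreated differences of both were of the same size, 2.53 and 2.08. Wdfy1, an endosomal protein (chromosome 1, probe at 79698903 to 79698962 in mm9), Cdk5rap1, an enzyme that modifies mitochondrial transfer RNA (chromosome 2, probe at 154161137 to 154161196 in mm9), and Plxdc2 (chromosome 2, probe at 16673217 to 16673276 in mm9) were higher in wild-type by 1.78, 1.67 and 1.42, beside 1.45, 2.35 and 1.10 in untreated cells. Other probes of Wdfy1 differed by between -0.68 and 1.00, so the probes of this gene disagree. Another probe of Ankrd29, Gdf3 and Cdk5rap1 gave 3.94, 1.77 and 1.05, each with the same sign. For Camk2b another probe gave 0.38, beside 2.36 for the probe shown, so its probes agree in sign but not in size.

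Ly6g, a surface protein of neutrophils (chromosome 15, probe at 74989023 to 74989082 in mm9), was the only gene of the 12 not called in untreated cells. Its LPS-treated levels were 10.41, 10.15, 10.04, 9.96 and 10.32 in wild-type and 9.12, 9.08, 8.36, 8.13 and 9.02 in TRIF-KO, without overlap (difference 1.44, SE 0.14, limma adjusted p = 0.0287). Untreated, wild-type was higher by a mean of 0.87 (adjusted p = 0.183), with 10.63 against 11.32 at 16 h, and the difference of its responses was not called (0.56, adjusted p = 0.426). Of the 8 markers of neutrophils and their precursors, 6 were well above background on all 10 arrays and Cxcr2 on none, and their summed level ran from 13.08 to 13.77 in wild-type and from 12.66 to 14.04 in TRIF-KO cells. Of the 7 tested, 3 had a higher mean in wild-type, with a median of -0.19, and Camp, a granule protein named after its values were seen, was lower in wild-type at all 5 hours (mean -0.55). The part of such cells in the Ly6g difference was not tested. The other called genes were Cd300a, an inhibitory receptor of myeloid cells (1.65, missing at 2 h), the transcripts AK040896 (2.02) and BC026762 (-1.19), and an unnamed probe on chromosome 4 (1.38).

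With 1 hour left out, limma called 5 genes without the 1 h pair, 7 without 2 h, 6 without 4 h, 5 without 8 h and 9 without 16 h. Ankrd29, Gdf3 and Lrmda were called each time, and Camk2b each time but without 4 h (adjusted p = 0.0555). With slide as a fixed term none was called (1029 with an unadjusted p under 0.05), and with slide as a random block 6 were.

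**Figure D4:**
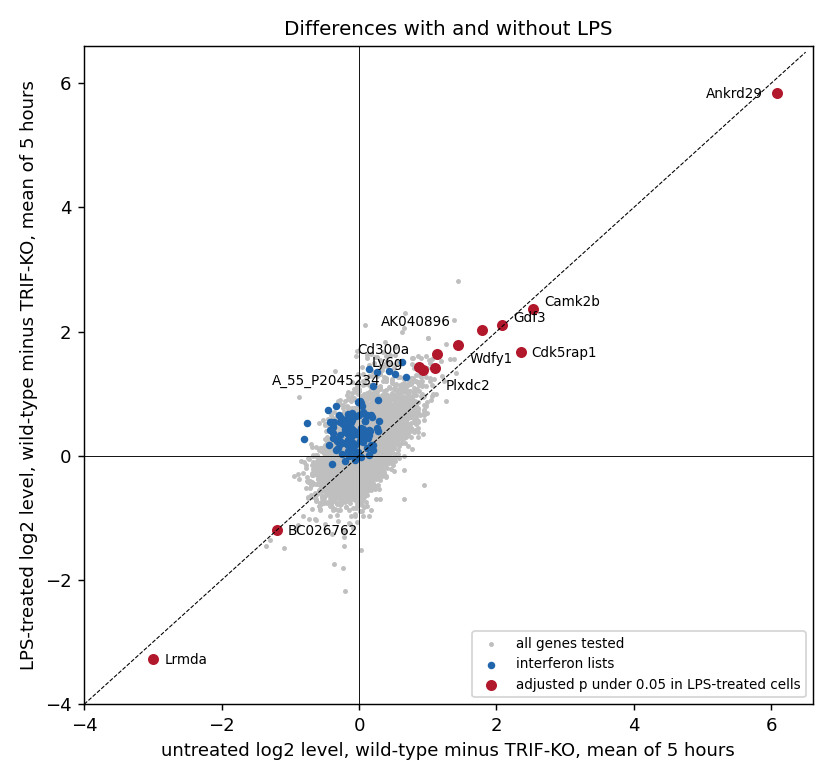
Mean log2 difference, wild-type minus TRIF-KO over 5 hours, in untreated cells (horizontal axis) against LPS-treated cells (vertical axis) for all genes tested (grey), the interferon lists (blue) and the 12 called genes (red); the dashed line marks equal differences. The called genes lie near the dashed line, from Ankrd29 (6.08 untreated, 5.84 LPS-treated) to Lrmda (-2.99 and -3.27), and the interferon genes lie mostly above it near an untreated difference of 0.

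The summed markers of other cell types overlapped between the groups. The markers of T cells ran from 11.43 to 13.83 in wild-type and from 11.09 to 11.77 in TRIF-KO, with Cd3g and Cd8a not well above background on any array. Those of B cells, NK cells, mast cells and fibroblasts overlapped between the groups, at 9.732 to 10.71 and 9.72 to 10.7, 10.57 to 11.08 and 10.25 to 11.08, 8.621 to 8.983 and 8.744 to 8.932, and 9.326 to 10.17 and 9.346 to 9.944. Dendritic cell markers, summed, ran from 17.26 to 17.53 and from 16.54 to 17.46, with Cd209a and Xcr1 not well above background on any array. The part of such cells in the differences above was not tested.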

How the data were processed

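Members and gene lists were chosen with earlier results of these data known. Agilent Feature Extraction 10.10.1.1 produced the deposited files, per the file headers, which hold the mean and background intensity of each spot and the processed intensity corrected by the authors' scanner software; no further step of the authors is stated. Background was corrected with normexp (offset 50), arrays were normalized by loess within and by quantiles of the mean log intensity between all 20 arrays (limma 3.58.1, R 4.3.3, data.table version 1.17.8), and the log2 intensity of each channel was taken. Outlier spots were set to missing, which left 148 of 19203 genes without a value on at least 1 of the 10 arrays; saturated spots (at most 38 per array) were kept. A probe was kept if well above background in the LPS channel on at least 3 of the 10 arrays, sex-linked probes (996) were left out, and a gene took its brightest kept probe (24669 probes, 4374 genes with several). Names came from RefSeq by accession (27234 probes), symbol (3576) or synonym (565), else from the file. Probe positions are those of mm9 in the files.

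limma's moderated test compared genotypes with hour as a block, on LPS-treated levels, untreated levels and log2 ratios, with Benjamini-Hochberg adjustment over all genes. The hours pair the arrays: same-hour deviations correlated at 0.587 to 0.865 for LPS-treated levels, and each wild-type array best with its own hour. The number of arrays limits the precision. The fits were tested on simulated data. Genes named are 30 fixed ones, given at every hour (1 is not reported here), up to 10 called genes in each direction, and others marked as chosen after their values were seen. Promoters came from RefSeq (GRCm38.p6), which held 11931 of the genes tested.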

Additional observations from a re-analysis of the deposited data

Results flagged for a closer look

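For 4 of 37 genes tested, 1 hour lay far from the other 4 hourly differences of the LPS-treated level by Dixon's test, which by chance singles out about 1 in 20 groups of values. All 4 were interferon-induced genes at 4 h, and the genes share arrays. Ifit3 was 1.56 higher in wild-type at 4 h, against 0.131 to 0.416 at the other hours. Rsad2 was 2.34 higher, against 0.0973 to 0.666. Usp18 was 1.69 higher, against -0.00196 to 0.285, and Stat2 0.849 higher, against 0.205 to 0.38.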

How the results depend on the processing

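For LPS-treated levels, 12 genes were called with hours as a replicate block (10 higher and 2 lower in wild-type). Fits with no replicate block called 2, processed intensities 7, slide as a fixed block 0, slide as a random block 6, the hours 4, 8 and 16 alone 2, all 19 arrays with LPS in Cy5 together 7, and with sex-linked genes kept 27; leaving out 1 hour gave 5 to 9. The other alternatives gave 11 to 14, and scaling of arrays 8 higher and 3 lower. For untreated levels, 416 genes became 10 with no replicate block, 2 and 22 with slide as a fixed and a random block, 8 with 4, 8 and 16 h alone, 23 with scaling (16 higher and 7 lower, against 180 and 236), and 13 to 2868 with 1 hour left out (2868 without 16 h). For responses 0 became 1 with 4, 8 and 16 h alone. Untreated levels over time gave 4303 calls and 2214 to 5110 with 1 hour left out (2396 without 8 h, 2214 without 16 h). The count of 58 interferon genes at 4 h, with alternatives chosen after seeing the data, became 93 with scaling and 50 to 64 otherwise. The cause of these changes was not tested. No interferon gene was called under any of the 17 alternatives for the LPS-treated level.

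Of 136 alternative values of the 8 called named genes, 136 kept their sign and 84 stayed called. These genes had the same sign at every measured hour, so leaving out hours could not reverse it. Fits with no replicate block, no filter on dim probes, all 19 arrays or sex-linked genes kept left the differences of these genes unchanged. For these alternatives the kept sign is therefore no test. Of 493 values of the 29 genes given at every hour, 0 became called and 20 changed sign. With 1 hour left out the mean of Ifnb1 ran from -0.102 to 1.58, Irf1 from -0.0651 to 0.145, Il6 from -0.962 to 1.04, Il1b from -0.0898 to 0.329, Cxcl1 from -0.754 to 0.417 and Tlr4 from -0.167 to 0.136. With 4, 8 and 16 h alone they were Ifnb1 -0.488, Irf1 -0.022, Ccl5 -0.00141, Il1b -0.243 and Tlr4 0.0674. With quantile normalization per channel they were Cxcl11 -0.00842 and Irf1 -0.0318, with slide as a fixed block Tlr4 0.911, with slide as a random block Tlr4 0.0957, and with scaling Tlr4 0.0621. Values at 1 hour rest on 1 array per genotype.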
